A study of Mus musculus with 8 samples.

Results

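The genes for 9 nuclear receptors of the hepatocyte were followed through a chemically driven liver growth response in mice: Nr1i3 (CAR), Nr1i2 (PXR), Rxra (RXRα), Ppara (PPARα), Hnf4a (HNF4α), Nr1h4 (FXR), Nr0b2 (SHP), Nr1h3 (LXRα) and Nr5a2 (LRH-1). They were read from every probe set that the array platform's annotation assigns to their symbols, which gave 20 probe sets for the 9 genes, of 45037 probe sets and 18193 genes measured. After a filter on low signals, 18 of the 20 probe sets and 9 of the 9 genes were kept, among 22519 probe sets and 12112 genes.

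The study compared livers in which the receptor tyrosine kinases MET and EGFR were blocked with control livers, after TCPOBOP, a synthetic agonist of mouse CAR that makes hepatocytes divide. All mice carried a floxed Met gene with a tamoxifen-inducible Cre (Metff/ff:ERCre+/+, also written METfl/fl: TamCre+/+ in the labels), and both arms were given 5 daily injections, with 1 oral dose of TCPOBOP at 3 mg/kg planned at least 5 days after the last. In the MET KO + EGFRi arm the injections held tamoxifen (100 µl at 10 mg/ml) and the diet, from 1 day before TCPOBOP, held the EGFR inhibitor canertinib at an intended 80 mg/kg per day. Control mice were littermates injected with corn oil alone. Livers were taken at days 0, 1, 2 and 5 of TCPOBOP, and RNA pooled from the livers of a group was hybridised to 1 array, so each arm and day has 1 array and there are 8 arrays in all. Deletion of Met was systemic, the control arm ate no canertinib, and the labels give neither the sex nor the number of mice in a pool, nor whether the day 0 mice had been dosed.

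Nuclear receptors are transcription factors whose activity is set by small lipophilic molecules. CAR, PXR, PPARα, FXR and LXRα bind DNA as heterodimers with RXRα, HNF4α binds as a homodimer and LRH-1 as a monomer, and SHP, which lacks a DNA-binding domain, represses other receptors. In hepatocytes CAR and PXR control drug metabolism, PPARα fatty acid oxidation, and FXR with SHP and LRH-1 bile acid synthesis. LXRα controls sterol export and fatty acid synthesis, while HNF4α maintains the hepatocyte's own gene program. In its resting state CAR is held in the cytoplasm, and EGF signalling is known to keep it there.

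Since Nr1i3, Hnf4a and Nr0b2 are the genes on which the comparisons below turn, the 250 bases before their RefSeq transcription starts are given here, 5′ to 3′ on the plus strand of mouse build GRCm38.p6. All 9 genes had an entry, with 13 starts between them. Hnf4a has an upstream start and a downstream start, the downstream start being the main one of adult liver. Capitals mark the matches found by a search of both strands for the nuclear receptor core AGGTCA, the HNF4α motif CAAAGTCCA, the LRH-1 motif CAAGGTCA, which contains the core, the C/EBP motif TTGCNNAA and the HNF1 core GTTAAT.
Nr1i3, chr1:171213720-171213969: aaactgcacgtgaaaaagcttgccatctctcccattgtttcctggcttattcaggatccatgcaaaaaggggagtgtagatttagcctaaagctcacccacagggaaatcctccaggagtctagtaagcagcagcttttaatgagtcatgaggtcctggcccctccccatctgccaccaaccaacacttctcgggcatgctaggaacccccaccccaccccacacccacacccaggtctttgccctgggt
Hnf4a upstream start, chr2:163506607-163506856: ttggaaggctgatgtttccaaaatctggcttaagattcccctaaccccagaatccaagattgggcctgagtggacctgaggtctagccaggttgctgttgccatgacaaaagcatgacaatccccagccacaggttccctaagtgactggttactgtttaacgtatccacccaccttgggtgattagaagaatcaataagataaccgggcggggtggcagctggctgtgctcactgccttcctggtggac
Hnf4a downstream start, chr2:163546905-163547154: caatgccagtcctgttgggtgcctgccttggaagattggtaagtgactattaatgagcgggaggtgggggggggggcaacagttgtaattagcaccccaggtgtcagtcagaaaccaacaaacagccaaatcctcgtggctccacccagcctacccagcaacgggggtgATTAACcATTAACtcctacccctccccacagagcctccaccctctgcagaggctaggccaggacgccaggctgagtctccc
Nr0b2, chr4:133553126-133553375: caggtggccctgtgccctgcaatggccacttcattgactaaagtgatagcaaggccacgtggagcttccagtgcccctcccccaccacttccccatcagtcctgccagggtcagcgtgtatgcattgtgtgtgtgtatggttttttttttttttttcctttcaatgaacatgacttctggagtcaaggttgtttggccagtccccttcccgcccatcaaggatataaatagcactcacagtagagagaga
The downstream Hnf4a window held 2 HNF1 cores on the minus strand, at -81 to -76 and -74 to -69 from the start, and the Nr1i3, upstream Hnf4a and Nr0b2 windows held none of the motifs searched. Among all 13 windows, 3 held the nuclear receptor core (Rxra, Nr1h4 and Nr5a2), 3 the HNF1 core (Hnf4a, Nr1h4 and Nr5a2), 1 the C/EBP motif (Nr5a2) and 0 the HNF4α or LRH-1 motif. Of 32841 mouse promoter windows of the same length, 14 percent held the nuclear receptor core, 0.384 percent the HNF4α motif, 1.33 percent the LRH-1 motif, 9.57 percent the C/EBP motif and 6.43 percent the HNF1 core.

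Signals are on a linear scale with the same trimmed mean on each array (500.002 to 500.003), and array medians ran from 224.2 to 250.6. The actin 3′ to 5′ ratio, a sign of RNA integrity, was 1.57 to 2.36, highest in MET KO + EGFRi at day 5. The other arrays had 1.57 to 1.90, and the part of this ratio in the day 5 values given here was not tested. The 2 Met probe sets did not separate the arms: 1434447_at read 1502, 1049, 2034 and 1358 at days 0, 1, 2 and 5 in MET KO + EGFRi, against 1444, 926, 1335.5 and 1149 in control (log2 difference 0.26, limma adjusted p = 0.510), and 1422990_at read 639.5, 532, 650 and 389 against 786, 561, 359 and 531. Whether either probe set lies in the deleted part of the gene is not given in the sources used here, so they do not check the deletion, and the arms are called throughout by their labels. The 8 hepatocyte markers measured were all above the filter, with summed signals of 233365 to 336395 in MET KO + EGFRi and 212820 to 349068 in control. Of these 8, 7 were higher in the MET KO + EGFRi mean and 1 was lower. Markers of macrophages were higher in the MET KO + EGFRi mean for 11 of 11 genes (sums 29483.5 to 51964.4, against 16354.9 to 36214.3 in control), those of monocytes and neutrophils for 5 of 7 (7259 to 7959, against 3104 to 3317), and those of stellate cells for 3 of 8 (11275 to 14596, against 8955 to 9547). Sums for endothelial cells (10566 to 14232, against 9254 to 13785), cholangiocytes, lymphocytes and pancreas, fat or muscle overlapped between the arms, with Cftr, Cd3d and Cpa1 below a signal of 71 on all 8 arrays. In whole liver, fewer cells of a type and less RNA per cell cannot be told apart.

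By the most intense probe set of each gene, CAR mRNA was lower in MET KO + EGFRi livers by more than 2-fold at days 0, 1 and 2, and about level at day 5. HNF4α mRNA was higher on all 4 days by that probe set and by 2 of 4 probe sets in all. SHP mRNA more than doubled after TCPOBOP in control livers on each day and did not in MET KO + EGFRi livers, and PPARα mRNA at day 5 was below its day 0 level by more than 2-fold in both arms, though not by its other 2 probe sets in MET KO + EGFRi. By the test used over all genes, none of the 9 genes passed for the arm difference, the TCPOBOP response or the difference of responses. The test was limma's moderated test on log2(signal + 71), with a term for arm and a term for day. Its error was drawn from how far the arm difference varied between days, moderated toward the spread usual for genes of like signal. A gene's SE can thus be narrower or wider than its own spread between days. Swings between days that both arms shared did not enter the error. P-values were adjusted over all 12112 genes by the Benjamini-Hochberg method and called under 0.05.

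For the arm difference, limma called 0 of 9 genes (3 at an unadjusted p under 0.05, where 12.1 percent of all genes stood), against 0.578 percent of all genes (0.413 percent higher and 0.165 percent lower). For the TCPOBOP response, the mean of days 1, 2 and 5 minus day 0 over both arms, it called 0 of 9 (3 at an unadjusted p under 0.05, against 10.1 percent of all genes), against 0.487 percent (0.421 percent higher and 0.0661 percent lower). A separate fit of whether the response differed between arms called 0 of 9 and 0 of all 12112 genes (1 and 543 at an unadjusted p under 0.05, 4.48 percent of all genes). At the level of the 18 kept probe sets limma also called 0 in each of the 3 comparisons, against 0.417, 0.298 and 0 percent of all probe sets.

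Single days have 1 array an arm and no test. By the probe set with the highest mean signal of each gene, MET KO + EGFRi was lower than control for 7 of 9 genes at day 0, 6 at day 1, 4 at day 2 and 6 at day 5. The arms differed by at least 2-fold for Nr1i3 at day 0, for Nr1i3 and Nr0b2 at day 1, for Nr1i3 at day 2 and for Nr0b2 at day 5, all lower in MET KO + EGFRi, while 2.18, 2.63, 2.03 and 2.16 percent of all genes were lower by that much on those days. Over the 4 days, 2 genes were lower on 4 of 4 days (Nr1i3 and Nr5a2, against 10.3 percent of all genes) and 1 was higher on 4 of 4 (Hnf4a, against 9.92 percent). The 2 arms did not overlap for Nr1i3, with MET KO + EGFRi lower (2.75 percent of all genes), or for Hnf4a, with MET KO + EGFRi higher (3.5 percent). Across the 8 arrays 4 of 9 genes spanned at least 2-fold (Nr1i3, Ppara, Nr0b2 and Nr1h3), against 28.1 percent of all genes.

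**Figure D1:**
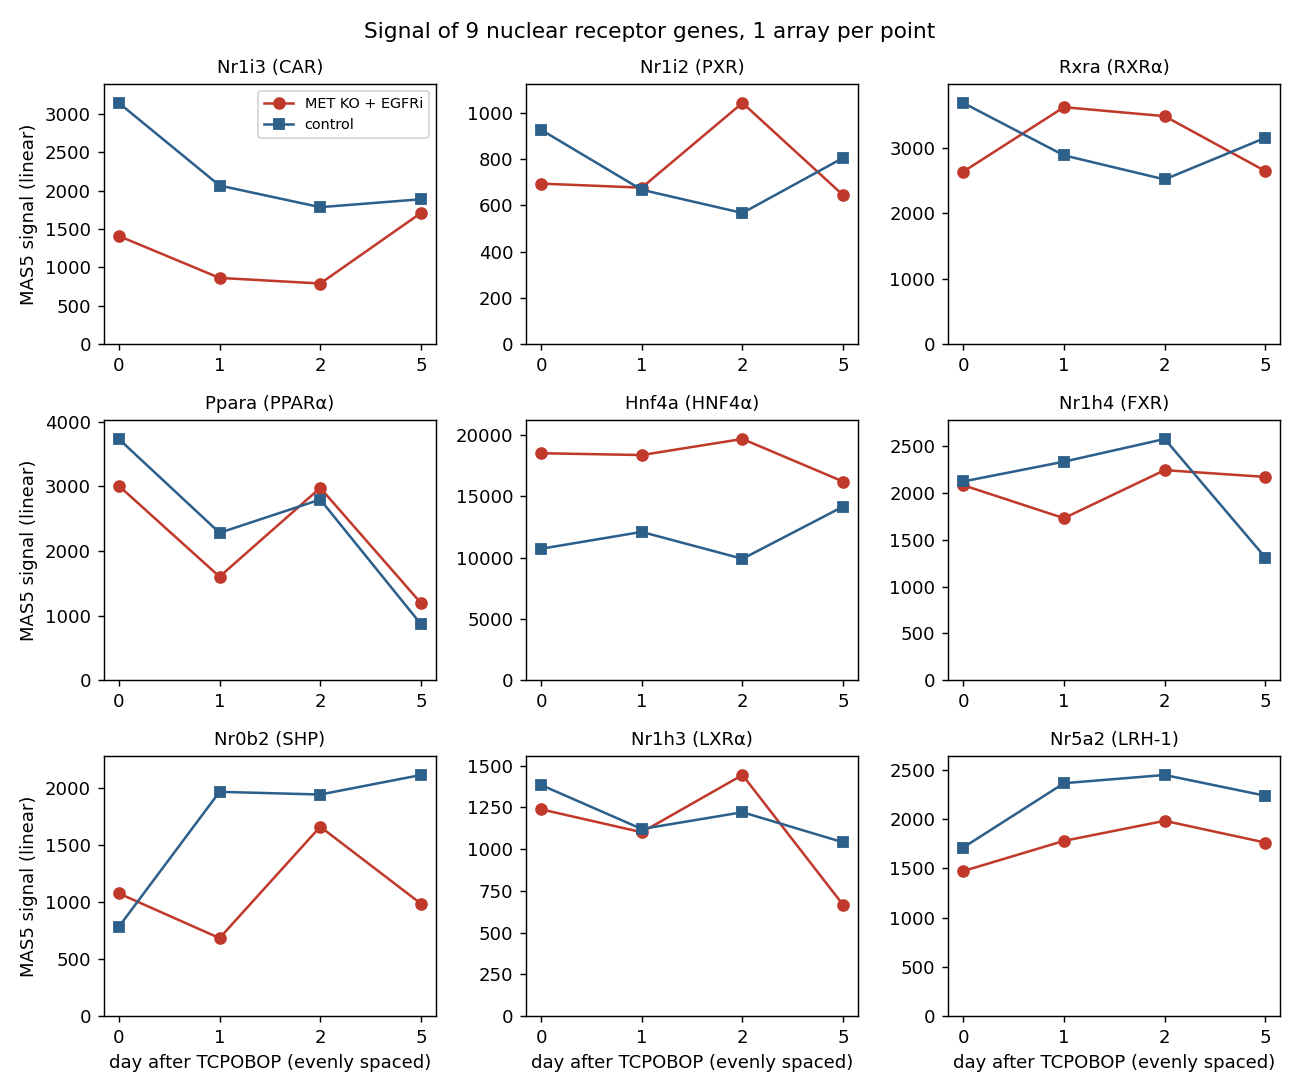
Signal of each gene's most intense probe set (y axis, linear, from 0) at days 0, 1, 2 and 5 of TCPOBOP (x axis, evenly spaced), 1 array per arm and day, MET KO + EGFRi and control as separate lines. Nr1i3 lies lower and Hnf4a higher in MET KO + EGFRi on all 4 days, and Nr0b2 lies higher in control from day 1 on.

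Of the 9 genes, Nr1i3, which encodes CAR, had the widest mean difference between the arms over the 4 days. Its 1 probe set, 1425392_a_at, read 1408.5, 863, 790 and 1708.5 at days 0, 1, 2 and 5 in MET KO + EGFRi, against 3141, 2065, 1783.5 and 1887 in control. Each MET KO + EGFRi array was below all 4 control arrays, and the day 5 pair was closest. The MET KO + EGFRi array of that pair had the highest actin 3′ to 5′ ratio, whose part was not tested. The fold of MET KO + EGFRi over control, computed like all folds here after adding 71 to each signal, was 0.461, 0.437, 0.464 and 0.909 on the 4 days. The mean log2 difference was -0.89 (SE 0.19, n = 4 days), with a limma adjusted p of 0.131 over all genes. The call depended on day 5, and leaving out either array of a day takes that day out of the arm difference. Without the control day 5 array the difference was -1.14 with adjusted p = 0.0336, and without the MET KO + EGFRi day 5 array it was -1.14 with adjusted p = 0.0356, both past the threshold, by limma. Without an array of day 0, 1 or 2 it was -0.82 to -0.79. The limma adjusted p was then 0.264 to 0.537, further from the threshold than with all arrays.

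After TCPOBOP, Nr1i3 signal in MET KO + EGFRi changed from its day 0 by -0.66, -0.78 and 0.27 on the log2 scale at days 1, 2 and 5, against -0.59, -0.79 and -0.71 in control. The 2 arms had close values at days 1 and 2 and opposite signs at day 5, where MET KO + EGFRi stood above its own day 0. The response over both arms was -0.55 (SE 0.22, limma adjusted p = 0.466), and its difference between arms was 0.31 (SE 0.46, limma adjusted p = 0.999). The marker sums of monocytes and neutrophils and of stellate cells were higher in MET KO + EGFRi without overlap, and those of macrophages overlapped. Of the 8 stellate markers, though, only 3 were higher in the MET KO + EGFRi mean and 5 were lower. These sums stand beside this and every other arm difference given here, and their part in the result was not tested. The hepatocyte marker sums overlapped between the arms, though 7 of 8 hepatocyte markers were higher in the MET KO + EGFRi mean. At days 0, 1, 2 and 5 these sums were 233365, 286342, 327664 and 336395 in MET KO + EGFRi. Control had 215168, 269412, 212820 and 349068, so the widest gap was at day 2. The part of these sums in the single-day differences was not tested.

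The genes whose log2 profile over the 8 arrays, centred on its own mean, lay closest to that of Nr1i3 were Sntb1, Pemt and Foxo4, at root mean square distances of 0.200, 0.227 and 0.229. Pemt, which encodes the enzyme that makes phosphatidylcholine from phosphatidylethanolamine, read 4151.5, 3033, 2801 and 5088.5 in MET KO + EGFRi, against 7097, 7045, 6519 and 7429 in control. Foxo4, a forkhead transcription factor, read 512, 334, 261 and 501 in MET KO + EGFRi, against 746, 616, 628 and 544 in control. All were lower in MET KO + EGFRi on each of the 4 days, with the narrowest gap at day 5, but they were picked for their likeness to Nr1i3.

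Genes that CAR is known to control were described from a list of 31, of which 25 were kept. After TCPOBOP 13 of them rose and 0 fell by limma, and 25 of 25 had a positive response, with a median log2 response of 1.45 beside a median of -0.02 for all genes. Cyp2b10, the classical CAR target and a drug-metabolising cytochrome P450, read 356, 37324, 32027 and 48292 in MET KO + EGFRi, against 444, 38898, 33939 and 45578 in control. Both arms were thus low at day 0 and high from day 1, with a log2 response of 6.38 (SE 0.15, limma adjusted p = 1.37e-06) and an arm difference of -0.08 (SE 0.13, adjusted p = 0.849). The probe set read for Cyp2b10 ends in _s_at, so it can share sequence with related genes.

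Cyp2c55, another cytochrome P450, read 462, 16179.7, 19763 and 21094 in MET KO + EGFRi, against 788, 36847, 23337 and 33252 in control. Its response was 5.16 (SE 0.19, limma adjusted p = 3.13e-05), and MET KO + EGFRi was lower on 4 of 4 days, with an arm difference of -0.69 (SE 0.17) that did not pass (adjusted p = 0.170). The other CAR targets called for the response were Abcc4 and Abcc3, which export drug conjugates (3.17 and 1.53), the glutathione transferases Gstm3 and Gstt1 (3.06 and 1.45), Cyp2c54, Cyp1a2, Cyp2c37 and Cyp2c50 (2.14, 1.99, 1.69 and 1.68), Papss2, Aldh1a7 and Ephx1 (1.35, 1.34 and 1.24), all log2 responses.

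For the arm difference 0 of the 25 CAR targets were called by limma (9 at an unadjusted p under 0.05), with 18 lower and 7 higher in MET KO + EGFRi and a median of -0.41, beside 0.00 for all genes. The median difference by day was -0.39, -0.37, -0.26 and -0.02, with 21, 21, 17 and 13 of 25 lower at days 0, 1, 2 and 5. Ugdh, which makes the sugar donor for glucuronidation, had the widest arm difference in the list, at -0.77 (SE 0.19, limma adjusted p = 0.174), from 4404, 7848, 6519 and 8365 in MET KO + EGFRi against 6799, 14467, 16833 and 9721 in control. The median change from day 0 within each arm was 1.52, 1.58 and 1.62 in MET KO + EGFRi and 1.37, 1.23 and 1.46 in control at days 1, 2 and 5. In number, 18, 17 and 19 of 25 were at least 2-fold above day 0 in MET KO + EGFRi, against 20, 20 and 19 in control, beside 1.6, 2.13 and 2.82 percent of all genes in MET KO + EGFRi and 2.58, 2.58 and 2.82 percent in control.

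**Figure D2:**
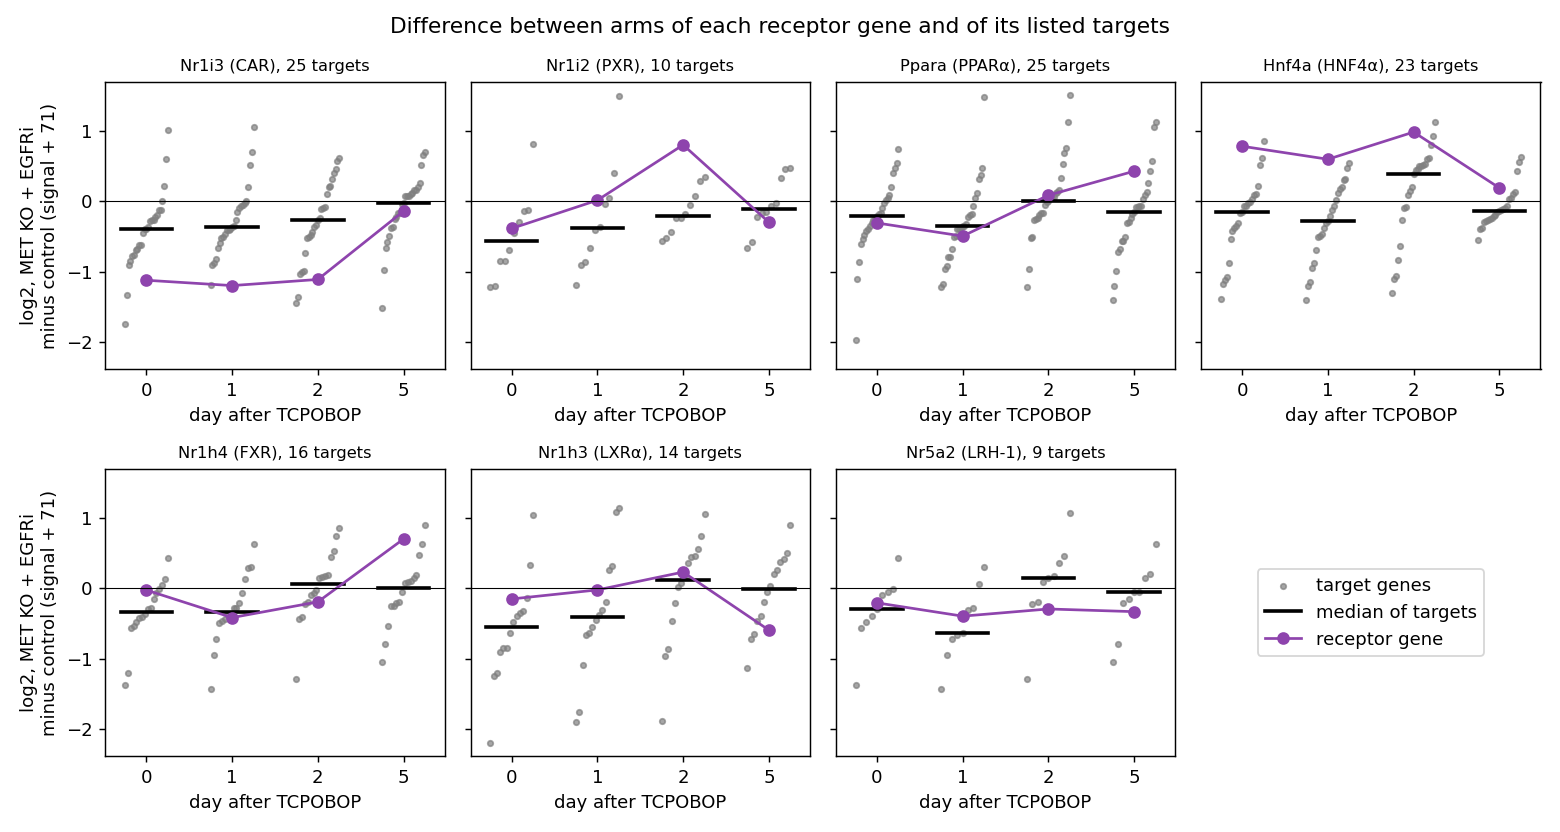
Log2 difference of MET KO + EGFRi minus control, after adding 71 to each signal (y axis), by day of TCPOBOP (x axis, evenly spaced), with small points for single target genes, bars for their median and a line for the receptor gene itself. The CAR targets' median lies at -0.39, -0.37, -0.26 and -0.02 while Nr1i3 lies at -1.12, -1.19, -1.11 and -0.14.

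PXR, the other xenobiotic sensor, did not differ between the arms in a constant direction. Its more intense probe set for Nr1i2, 1451807_at, read 695, 677, 1044 and 644 in MET KO + EGFRi, against 928, 668, 568 and 806 in control. MET KO + EGFRi was lower at days 0 and 5, level at day 1 and higher at day 2, and the arms overlapped (arm difference 0.04, SE 0.21, limma adjusted p = 0.970). The second probe set, 1425723_at, read 585.1, 492, 688.5 and 467 in MET KO + EGFRi, against 687, 593, 657 and 559 in control (arm difference -0.15, SE 0.14, adjusted p = 0.741). Of 12 listed PXR targets 10 were kept, with 4 called higher and 0 lower after TCPOBOP and a median response of 1.03. These were Cyp2c55 and Gstm3, which the CAR list also holds, the carboxylesterase Ces2a at 3.62 (SE 0.22, adjusted p = 0.000623) and the transporter Slco1a4 at 1.17 (SE 0.18, adjusted p = 0.0436). Between the arms limma called 0 of 10 (7 at an unadjusted p under 0.05; median -0.47, 6 lower). Cyp3a11, the textbook PXR target, had an arm difference of 0.03 (SE 0.14) and a response of 0.76 (limma adjusted p = 0.143).

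RXRα, the shared partner, gave different pictures by probe set. For Rxra, 1454773_at read 2638, 3625, 3487 and 2647 in MET KO + EGFRi, against 3689.5, 2888, 2519.5 and 3156 in control. MET KO + EGFRi was lower at days 0 and 5 and higher at days 1 and 2, so the mean difference was 0.01 (SE 0.18, limma adjusted p = 0.986). The second, 1425762_a_at, read 3029.9, 2516, 1851 and 1196 in MET KO + EGFRi, against 2355, 849.5, 979.8 and 1821 in control, higher on days 0, 1 and 2 and lower on day 5 (0.53, SE 0.30, adjusted p = 0.557). Another, 1430497_at, was at low signal on all arrays (15.9 to 41.8 in MET KO + EGFRi and 19.9 to 82.5 in control) and was not kept. Rxrb, a second RXR, had the widest arm difference of the 20 other nuclear receptors kept, at 0.86 (SE 0.24, limma adjusted p = 0.210), from 955, 1047, 1054 and 722 in MET KO + EGFRi against 483, 468.5, 320.1 and 742 in control.

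HNF4α mRNA was higher in MET KO + EGFRi in the mean over days. The most intense Hnf4a probe set, 1427001_s_at, read 18500, 18354, 19664 and 16189.5 in MET KO + EGFRi, against 10713, 12089, 9895 and 14157 in control. Each MET KO + EGFRi array was above all 4 control arrays, by 0.78, 0.60, 0.99 and 0.19 on the log2 scale at days 0, 1, 2 and 5. This probe set too ends in _s_at and can share sequence with other RNAs, and the arms overlapped on the other 3 Hnf4a probe sets. The mean difference was 0.64 (SE 0.16, n = 4 days), with a limma adjusted p of 0.176. The other 3 probe sets gave mean differences of 0.46, 0.54 and 0.54 (adjusted p = 0.306, 0.513 and 0.421), so 4 of 4 were positive, but only 2 of the 4 were higher on every day, and 1427000_at by just 0.03 at day 2. At day 5, 1421983_s_at read 3154 in MET KO + EGFRi against 4478 in control and 1450447_at read 759.9 against 869.8, both lower in MET KO + EGFRi. For 1427001_s_at too, day 5 had the narrowest gap of the 4 days. The MET KO + EGFRi array of day 5 had the highest actin 3′ to 5′ ratio, whose part was not tested.

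Against TCPOBOP, the most intense Hnf4a probe set had a response of 0.06 and the other 3 had -0.55, -0.58 and -0.70, none called. Of 25 listed HNF4α targets 23 were kept, Nr1i3, Nr1i2 and Ppara among them, and limma called 0 for either comparison (7 and 8 at an unadjusted p under 0.05, for arm and response). Their median arm difference was -0.07, and by day it was -0.15, -0.28, 0.39 and -0.14 with 16, 15, 8 and 16 of 23 lower. Otc, the urea cycle enzyme ornithine transcarbamylase, read 7346, 8796, 12209 and 13035 in MET KO + EGFRi, against 15534, 16225, 14599 and 16906 in control (arm difference -0.65, SE 0.17, adjusted p = 0.198). Pck1, a gluconeogenic enzyme, was higher in MET KO + EGFRi at 0.60 (SE 0.17, adjusted p = 0.225).

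Bile acid sensing involves FXR, SHP and LRH-1. FXR mRNA, read by the 1 probe set 1419105_at for Nr1h4, was 2081, 1729, 2242 and 2169 in MET KO + EGFRi, against 2121, 2332, 2574 and 1309 in control. The arms overlapped, with MET KO + EGFRi lower at day 1 and higher at day 5 (arm difference 0.02, SE 0.19, limma adjusted p = 0.986). SHP, which FXR induces, followed another course: 1449854_at for Nr0b2 read 1076.5, 685, 1661 and 986 in MET KO + EGFRi, against 784, 1967, 1943 and 2114 in control. Control signal was up from day 1 on, at 2.38, 2.36 and 2.56 times its day 0, where 2.58, 2.58 and 2.82 percent of all genes were at least 2-fold higher. MET KO + EGFRi signal moved by -0.60, 0.59 and -0.12 on the log2 scale.

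The arm gap in Nr0b2 was 1.34, 0.371, 0.860 and 0.484-fold at days 0, 1, 2 and 5, which put MET KO + EGFRi above control at day 0 and below it afterwards. The mean arm difference was -0.57 (SE 0.28, limma adjusted p = 0.480) and the response over both arms 0.62 (SE 0.33, adjusted p = 0.6001). Leaving out 1 array moved the arm difference to between -0.90 (without either day 0 array) and -0.28 (without either day 1 array), and the response to -0.04 without the control day 0 array and 1.28 without the MET KO + EGFRi day 0 array, none called by limma. The difference of the responses was -1.32 (SE 0.48), with an unadjusted p of 0.0287 and an adjusted p of 0.999, and it was the widest of the 9 genes by their most intense probe sets. Closest in profile to Nr0b2 were Phf1, Fam71f1 and Hax1 (distances 0.193, 0.212 and 0.223). Hax1, an anti-apoptotic mitochondrial protein gene, read 3092, 1519, 2859 and 1878 in MET KO + EGFRi, against 1306, 4268, 4052 and 4272 in control. Its MET KO + EGFRi signal was above control at day 0 and below it later, while Phf1 was level at day 0 (211 against 211.3). All were picked for their likeness to Nr0b2, so a shared course adds nothing to it.

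Of 17 listed FXR targets 16 were kept, Nr0b2 among them, and limma called 0 for either comparison (2 and 3 at an unadjusted p under 0.05; median arm difference -0.18, 12 lower; median response 0.13, 13 higher). Abcb11, the bile salt export pump, read 6585, 8784, 12502 and 11087 in MET KO + EGFRi, against 9812.5, 14485, 11095 and 19282 in control (arm difference -0.48, SE 0.18, adjusted p = 0.355). Cyp7a1, the rate-limiting enzyme of bile acid synthesis, which SHP represses, read 1895, 2023, 3900.3 and 4087 in MET KO + EGFRi, against 5047, 3967, 3508 and 2607 in control (arm difference -0.39, SE 0.31, adjusted p = 0.692). It was lower in MET KO + EGFRi at days 0 and 1 and higher at days 2 and 5. Cyp8b1, a sterol hydroxylase of the same pathway, had an arm difference of -0.30 (SE 0.24, adjusted p = 0.688).

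LRH-1, which activates Cyp7a1 and Nr0b2, was lower in the mean of MET KO + EGFRi by 3 of 3 kept Nr5a2 probe sets. The most intense, 1456521_at, read 1472, 1778, 1982 and 1761 in MET KO + EGFRi, against 1711, 2363, 2446 and 2236 in control (log2 differences -0.21, -0.40, -0.29 and -0.33). MET KO + EGFRi was lower on each day, but its arrays from day 1 on lay above the control day 0 array, so the arms overlapped. The mean difference was -0.31 (SE 0.12, limma adjusted p = 0.363), and both arms were above day 0 on each later day, with a response of 0.37 (SE 0.14, adjusted p = 0.415). For 1449706_s_at, 542, 513.5, 547 and 626 in MET KO + EGFRi stood against 720.1, 912, 828 and 663 in control, with no overlap, as for 2.6 percent of all probe sets (-0.43, SE 0.15, adjusted p = 0.353). By its _s_at ending, this probe set can share sequence with other RNAs. Another, 1420410_at, had a difference of -0.09 and a response of -0.32 (adjusted p = 0.628), opposite in sign to that of 1456521_at, being below day 0 on each later day in control and at days 1 and 5 in MET KO + EGFRi, and 1449707_at was too low to keep (46.8 to 148 in MET KO + EGFRi and 33.3 to 178 in control). Of 11 listed LRH-1 targets 9 were kept, Nr0b2 among them, and limma called 0 for either comparison (1 and 3 at an unadjusted p under 0.05; median arm difference -0.18, 8 lower and 1 higher).

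**Figure D3:**
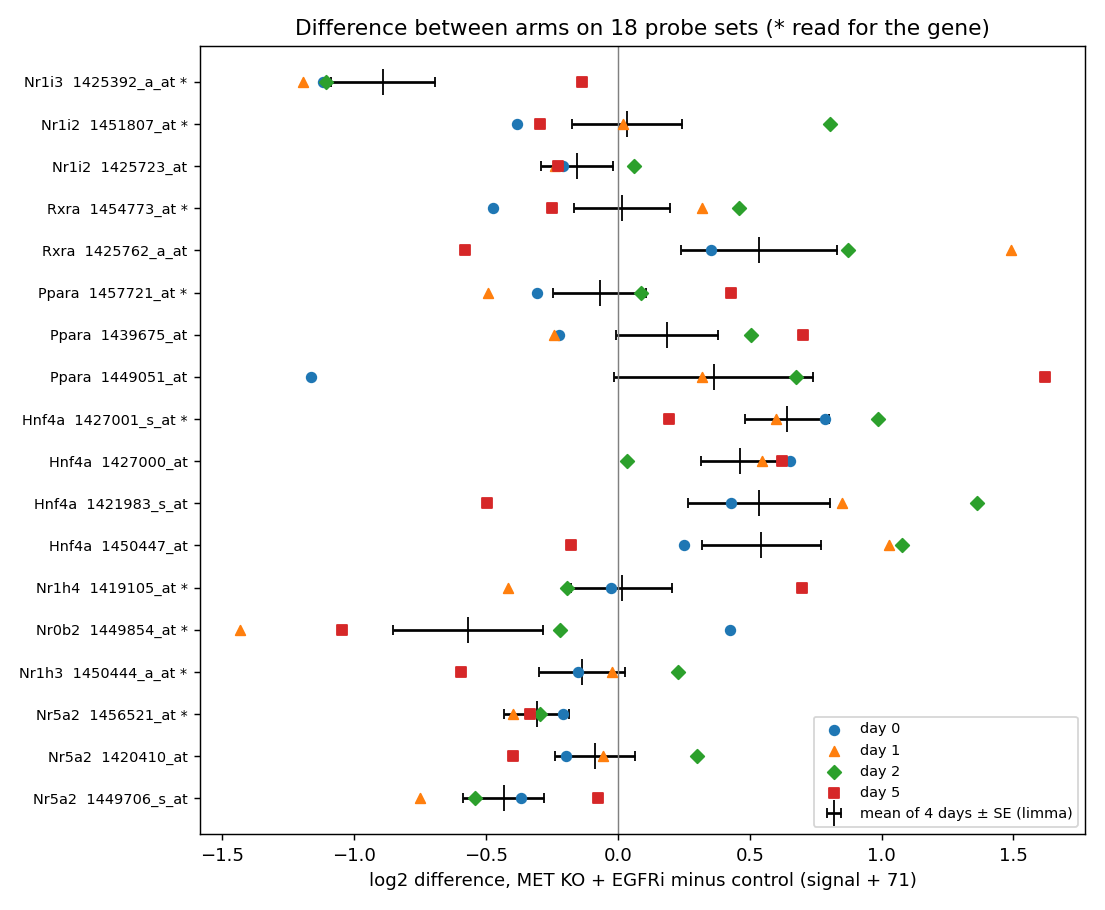
Log2 difference of MET KO + EGFRi minus control (x axis) for the 18 kept probe sets, with a symbol for each day, a tick for the mean of the 4 days and a bar for its SE from limma. Nr1i3 lies at -0.89, the 4 Hnf4a probe sets lie between 0.46 and 0.64, and the 3 of Nr5a2 lie between -0.43 and -0.09.

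PPARα mRNA had the most negative TCPOBOP response of the 9 genes, with low values in both arms at day 5. The most intense Ppara probe set, 1457721_at, read 3007, 1601, 2975.5 and 1193 in MET KO + EGFRi, against 3732, 2280.3, 2795 and 867 in control. Both arms were low at days 1 and 5 and higher at days 0 and 2. At day 5 the signal was 0.410 of day 0 in MET KO + EGFRi and 0.247 of it in control, while 2.7 and 2.57 percent of all genes were at least 2-fold lower in those arms. The response was -0.88 (SE 0.20), with an unadjusted p of 0.0022 and an adjusted p of 0.155, and the arm difference -0.07 (SE 0.17, limma adjusted p = 0.916). The swing between days that both arms shared does not enter these errors. The second probe set, 1439675_at, read 2753, 1534, 2874 and 1439.7 in MET KO + EGFRi, against 3225.5, 1827, 2002 and 858 in control (response -0.83, adjusted p = 0.284).

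The remaining Ppara probe set, 1449051_at, differed in shape from these. It read 806, 725, 1002 and 928 in MET KO + EGFRi, against 1895, 567, 601 and 254 in control, lower in MET KO + EGFRi at day 0 (0.446-fold) and higher at day 5 (3.07-fold). The difference of its responses was 2.04 (SE 0.52, limma adjusted p = 0.947 over all probe sets). The genes closest in profile to the most intense Ppara probe set were Acsf2, Hpse and Cyp2c38, at distances of 0.245, 0.280 and 0.283. Acsf2, an acyl-CoA synthetase gene, read 1039, 656, 1490.2 and 468 in MET KO + EGFRi, against 1227, 606, 884 and 283 in control.

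Of 33 listed PPARα targets 25 were kept, and limma called 1 higher and 0 lower in MET KO + EGFRi and 0 for TCPOBOP. At an unadjusted limma p under 0.05 there were 9 for the arm difference and 7 for the response. The called gene was Ehhadh, the peroxisomal bifunctional enzyme of fatty acid oxidation, at 10706, 11964, 17221 and 7323 in MET KO + EGFRi against 6366, 4238, 6016 and 3316 in control, higher on 4 of 4 days (1.21, SE 0.16, limma adjusted p = 0.0213). The list's median arm difference was -0.16, with 16 lower, and its median response -0.21, with 19 lower. Cyp4a14, a fatty acid hydroxylase, read 11469, 3941, 9895 and 5104 in MET KO + EGFRi, against 12919, 4605.5, 5837.5 and 4244 in control, low at days 1 and 5 in both arms and, in control alone, at day 2 as well (response -1.18, SE 0.21, adjusted p = 0.0758). Plin2, which coats lipid droplets, had an arm difference of -0.80 (SE 0.16, adjusted p = 0.1002).

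LXRα mRNA overlapped between the arms. The 1 Nr1h3 probe set, 1450444_a_at, read 1238.5, 1101, 1444 and 666 in MET KO + EGFRi, against 1384, 1121, 1221 and 1041 in control. The day 5 MET KO + EGFRi array stood below the other 7, and the arms were otherwise interleaved (arm difference -0.14, SE 0.16, limma adjusted p = 0.796; response -0.27, adjusted p = 0.701). That array also had the highest actin 3′ to 5′ ratio, 2.36, whose part in this and the other day 5 values was not tested. Egr4, Cxxc1 and Mgat1 lay closest in profile, at distances of 0.126, 0.126 and 0.128.

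Of 15 listed LXR targets 14 were kept and limma called 1, Pnpla3, lower in MET KO + EGFRi, and 0 for the response. At an unadjusted limma p under 0.05 there were 8 for the arm difference and 1 for the response, beside 12.1 and 10.1 percent of all genes. Pnpla3, a lipid droplet protein gene, read 302, 450, 366 and 645.5 in MET KO + EGFRi, against 602, 1871, 782 and 1496 in control, lower on 4 of 4 days (-1.21, SE 0.19, adjusted p = 0.0422). The fatty acid synthesis genes Scd1 and Fasn were lower in MET KO + EGFRi on each of the 4 days, but neither passed. Scd1 had 21249, 10692, 9653 and 14684 in MET KO + EGFRi against 38296, 36187, 36004 and 23062 in control (-1.29, SE 0.23, limma adjusted p = 0.0729), and Fasn had a difference of -1.14 (SE 0.26, adjusted p = 0.150). Srebf1, the LXR-controlled lipogenic factor, had a difference of -0.28 (SE 0.29) and Abcg5, a sterol exporter, -0.12 (SE 0.20). The list's median by day was -0.56, -0.41, 0.11 and -0.01, and 10 of 14 were lower in the mean.

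**Figure D4:**
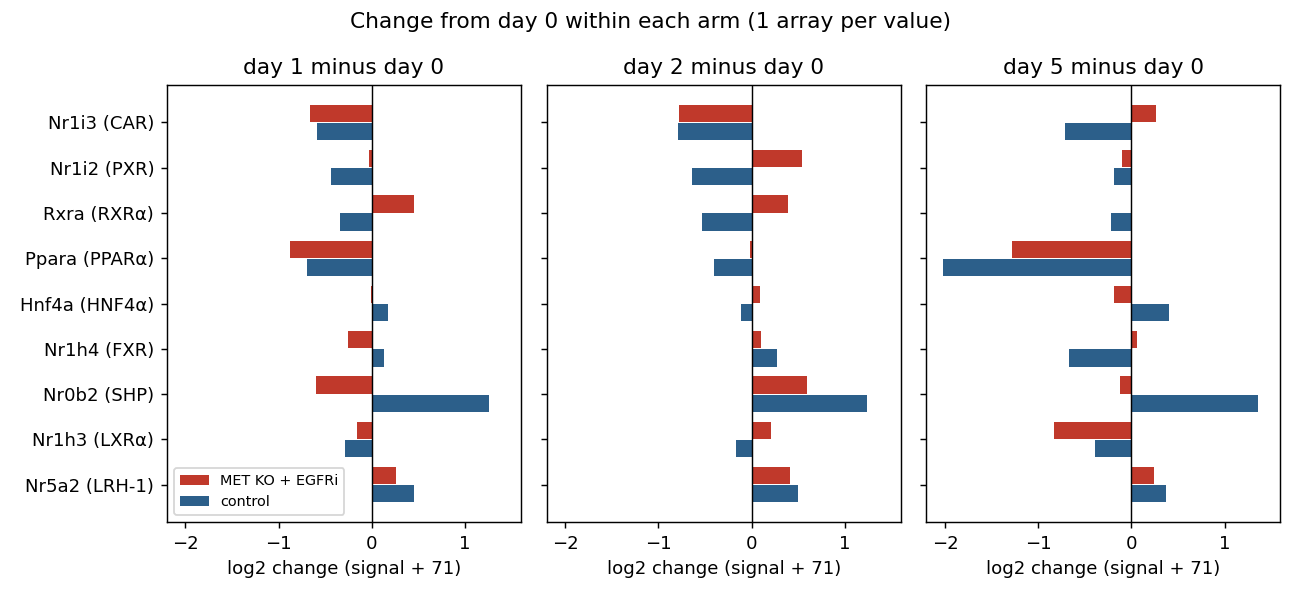
Log2 change from day 0 within each arm at days 1, 2 and 5 of TCPOBOP, for the 9 genes by their most intense probe set, with the MET KO + EGFRi bar above the control bar and 1 array per value. Nr0b2 in control lies at 1.25, 1.24 and 1.35, and Ppara is lowest at day 5 in both arms.

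Around the 9 genes, the 32 other nuclear receptors listed had 20 kept and 0 called for either comparison by limma (5 and 5 at an unadjusted p under 0.05), with medians of -0.02 for the arm difference and 0.04 for the response. Rarg, a retinoic acid receptor, read 421, 375.5, 520 and 412 in MET KO + EGFRi, against 743, 595, 756 and 701 in control, with no overlap (-0.62, SE 0.13, adjusted p = 0.127). Of 19 listed coregulators and members of the complex that retains CAR in the cytoplasm 16 were kept and 0 called (1 and 1 at an unadjusted p under 0.05; medians 0.07 and -0.04). Of 18 other hepatocyte transcription factors 16 were kept, with 1 called between the arms and 0 for the response (6 and 2 at an unadjusted p under 0.05). That was Cebpd, a C/EBP factor of the acute phase response, at 1280, 593, 461 and 396 in MET KO + EGFRi against 324, 110.5, 146 and 139 in control (1.52, SE 0.19, limma adjusted p = 0.0174). Its relative Cebpb had 0.74 (SE 0.16, adjusted p = 0.127).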

How the data were processed

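The deposited values are a linear intensity per probe set for each of 8 Affymetrix arrays, computed by the authors with MAS5 (version not stated), per the submitters' processing notes, from 6 µg of total RNA. Of 45101 probe sets, 64 were controls. Among the remaining 45037, the platform's table names 1 gene for 34945, several for 932 and lists no entry for 9160, and 34741 matched RefSeq by Entrez ID with 0 symbols changed. Signals were taken as log2(signal + 71), 71 being the lower quartile of all values. Each gene took the values of its most intense probe set and stayed in the tests if its mean reached 8.24, the median over probe sets. Arm and day terms were fitted with limma 3.58.1 in R 4.3.3 (moderated with a trend, 3 residual degrees of freedom, 2 in the fit of the difference of responses), and p-values were adjusted over all genes, or over all probe sets for a gene's further probe sets. Since each group is 1 pooled array, p-values rest on how far the arm difference varied between days, and single days have no test. That error is moderated over all genes kept, so it is not a gene's own spread alone. Swings between days that both arms shared are not part of that error. Arrays limit the precision through their number. The fits were tested on simulated data with known changes, over 10 simulations with 200 changed genes each. Noise was independent between arrays, with the moderated spread of each gene, and a change had the same size on every day. For genes whose difference varies by day, the shares called can be lower. Calls on unchanged genes averaged 10.7 of 160.4 for the arm difference, 10.9 of 153.2 for the response and 8 of 95.2 for the difference of responses. Of changes of 1 log2 unit, the share called was 0.888 for the arm difference, 0.788 for the response and 0.046 for the difference of responses. At 0.5 log2 units the shares were 0.106, 0.06 and 0. A gene not called is thus not shown to be unchanged. Named genes are the 9 members, fixed best known targets, up to 4 list members of widest difference or called, and the 3 closest profiles of members spanning at least 1 log2 unit. Members and lists were chosen with earlier results of these data known.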

Additional observations from a re-analysis of the deposited data

Results flagged for a closer look

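Rxra by the probe set 1454773_at moved in opposite directions in the 2 arms after TCPOBOP. Averaged over days 1, 2 and 5, its change from day 0 was 0.28 on the log2 scale in MET KO + EGFRi and -0.37 in control, and on each of the 3 days MET KO + EGFRi was above its own day 0 and control below its own, though at day 5 the MET KO + EGFRi signals were close (2647, against 2638 at day 0). The difference of the changes was 0.65, and limma's test of it did not pass (SE 0.37, adjusted p = 0.999 over all genes). The second Rxra probe set did not show it.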

How the results depend on the processing

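The 27 member values tested were recomputed under 10 alternatives each and without each array, 468 values in all. The call was the same in 466, and the 2 others were Nr1i3 without each day 5 array, at -1.14. Under the 10 alternatives with all arrays the Nr1i3 arm difference stayed between -0.93 and -0.80 (adjusted p 0.0863 to 0.231) and that of Hnf4a had adjusted p 0.121 to 0.280. In 45 cases among 15 values the sign changed, and 12 values kept it.

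Counts over all genes depended on the setting. The 70 arm difference calls became 28 with no filter and 20 to 57 without 1 array. The 59 TCPOBOP calls became 35 from the mean of probe sets, 26 with no filter, 34 with no trend and 4 to 49 without 1 array. Over probe sets, 94 arm difference calls became 29 with no filter, 62 with no trend and 18 to 76 without 1 array, and 67 TCPOBOP calls became 14, 33 and 9 to 58. The 5853 single-day values of at least 2-fold, arm differences and changes from day 0 within an arm together, became 3132 with the median of all values as pseudocount, 11659 with no filter, 2892 with an upper quartile filter and 3736 from the mean of probe sets. The difference of responses had 0 calls throughout and could not be fitted without a day 0 array. The day term of the fit already compares the arms within each day. Beyond it, no paired analysis was possible because each arm and day has 1 array.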
